A study of Mus musculus with 18 samples.

Results

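The miR-10 and miR-196 families are microRNAs encoded within the Hox clusters, and 6 of their mature products were taken by name from a table of 1412 mature mouse miRNAs measured by small RNA sequencing of knee cartilage. They are mmu-miR-10a-5p, mmu-miR-10a-3p, mmu-miR-10b-5p, mmu-miR-10b-3p, mmu-miR-196a-5p and mmu-miR-196b-5p. All 6 were present, and all 6 were among the 428 miRNAs that passed the filter on low counts. All mice were wild-type C57bl6 males aged 12 weeks, and in the injured animals a single load on the right knee ruptured the anterior cruciate ligament (ACL). The 18 libraries were injured right knees and uninjured contralateral left knees at day 1 (n = 3 each) and day 7 (n = 3 each), and knees of naïve mice that were never loaded (n = 6), which the labels place at day 7. Every library pooled cartilage caps over several mice (4 by the series text, fewer in some groups by the study's methods), and contralateral knees belonged to the injured animals. The naïve libraries were pooled by side from a small set of mice and can therefore share animals.

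miRNAs are short RNAs that pair with messenger RNAs mainly through bases 2 to 8, the seed, and lower their translation or stability. Hox genes encode transcription factors that set position along the body axis and along the limb, and many connective tissue cells keep a Hox pattern into adult life. The genes of miR-10 and miR-196 lie within the Hox clusters, and miR-196 is known to target several Hox messengers, with Hoxb8 as the classical case. Their levels in knee cartilage libraries were examined to ask whether they were stable after ACL rupture. No other body position was sampled, so whether these levels mark position was not tested.

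The sequences below show how alike the paralogues are, which bears on how far their counts can be separated. Each is the RefSeq mature sequence on GRCm38.p6, 5′ to 3′, with the seed in capitals.
mmu-miR-10a-5p: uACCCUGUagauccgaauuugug
mmu-miR-10b-5p: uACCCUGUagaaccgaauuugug
mmu-miR-10a-3p: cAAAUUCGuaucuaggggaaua
mmu-miR-10b-3p: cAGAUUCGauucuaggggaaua
mmu-miR-196a-5p: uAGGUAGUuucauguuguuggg
mmu-miR-196b-5p: uAGGUAGUuuccuguuguuggg
mmu-miR-100-5p: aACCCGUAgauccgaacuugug
mmu-miR-10a-5p and mmu-miR-10b-5p have the same seed and differ by 1 base, U12A, counted from the 5′ end with the first-named miRNA's base first. mmu-miR-196a-5p and mmu-miR-196b-5p likewise share a seed and differ only by A12C. The 3p arms of the miR-10 genes differ at 3 positions, A3G, U9A and A10U, of which A3G lies in the seed. In the RefSeq table of 1679 mouse mature miRNA names, ACCCUGU was the seed of mmu-miR-10a-5p and mmu-miR-10b-5p only, and AGGUAGU that of mmu-miR-196a-5p and mmu-miR-196b-5p only. mmu-miR-100-5p, of the related miR-99 and miR-100 family, has another seed, ACCCGUA, but shares an unbroken run of 11 bases with mmu-miR-10a-5p.

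The genes lie in all 4 Hox clusters. Mir10a (chr11:96317165-96317274, plus strand) lies in the Hoxb cluster, 992 bp from Hoxb4 and 11043 bp from Hoxb5, in no annotated gene other than its own. Mir10b (chr2:74726070-74726137, plus strand) lies in an intron of Hoxd3 and Hoxd4 transcripts. mmu-miR-196a-5p can come from Mir196a-1 (chr11:96265164-96265265, plus strand), which lies between Hoxb13 and Hoxb9 in no annotated host gene, or from Mir196a-2 (chr15:102973350-102973434, plus strand), which lies between Hoxc10 and Hoxc9 in an intron of a long Hoxc5 transcript. Both genes give the same mature sequence, so their shares of its count are unknown. Mir196b (chr6:52230081-52230165, minus strand) overlaps an exon of a Hoxa9 transcript on the same strand and lies 1031 bp from Hoxa10. Gene positions were taken from GENCODE M21 on GRCm38.

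Depth ranged from 758388 to 4088852 counts per library, with the lowest total in day 7 injured replicate 1. Within groups, the 27 library pairs differed well beyond sampling noise (chi-square per degree of freedom from 49.1 to 1129), so no pair looked like the same library counted again. Cartilage markers (miR-140 and miR-455, 4 arms) were present in every library at a summed 5029 to 10499 CPM (counts scaled to a common library size, with TMM factors). The listed skeletal muscle miRNAs that passed the filter summed to between 55099 and 274781 CPM, and the 4 vascular miRNAs to between 48221 and 97625 CPM. No marker of any list was at 0 counts in any group. Day 7 contralateral replicate 1 held 249856 CPM of muscle miRNAs, against 136694 and 155989 in the other day 7 contralateral libraries, and it stood apart in several of the values below. In bulk tissue, fewer cells of a type and less RNA per cell cannot be told apart.

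The Hox-cluster miRNAs as a set were abundant in the cartilage libraries of every group. Which cells carried them cannot be told from bulk libraries. Together the 6 held between 1.75% and 2.76% of the counts of a library, with a median of 2.20% (n = 18). The miR-10 5p arms took most of this, at 1.39% to 2.46%, and the miR-196 5p arms took 0.256% to 0.359%. As percentages of unscaled counts, both sums ranged less than 2-fold over the 18 libraries. On the CPM scale used below the range was wider for miR-196, with mmu-miR-196a-5p alone between 947 and 2394 CPM.

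mmu-miR-10a-5p had a mean of 9518 ± 1606 CPM (SD, n = 18) and ranked 22 of the 428 tested miRNAs. mmu-miR-10b-5p had a mean of 9227 ± 1159 CPM (SD, n = 18) and ranked 24. Their order was not fixed, since mmu-miR-10a-5p had the higher count in 9 of 18 libraries and mmu-miR-10b-5p in the other 9. mmu-miR-196a-5p (1625 ± 398 CPM, SD, n = 18) and mmu-miR-196b-5p (1509 ± 291 CPM, SD, n = 18) ranked 59 and 61. Every value of the miR-10 5p arms, down to 5832 CPM, lay above every value of the miR-196 5p arms, up to 2394 CPM. mmu-miR-196a-5p had the higher count in 12 libraries, mmu-miR-196b-5p in 4, and in 2 libraries (day 1 contralateral replicate 3 and day 7 injured replicate 1) both had exactly the same count, 1676 and 1357. The mature sequences are all 22 or 23 bases long, but ligation and alignment biases of single sequences are not known here. Differences in level between miRNAs, here and for the 3p arms below, are therefore differences in counts and may not reflect amounts in the tissue.

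The 3p arms were rare. mmu-miR-10a-3p had a mean of 61.7 ± 14.7 CPM (SD, n = 18) and mmu-miR-10b-3p of 18.2 ± 5.49 CPM (SD, n = 18), with mmu-miR-10a-3p the higher of the pair in all 18 libraries. The 5p arm exceeded the 3p arm by a median of 147-fold for miR-10a and 475-fold for miR-10b. mmu-miR-10b-3p rested on 10 to 74 counts per library and is the least precise of the 6.

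**Figure D1:**
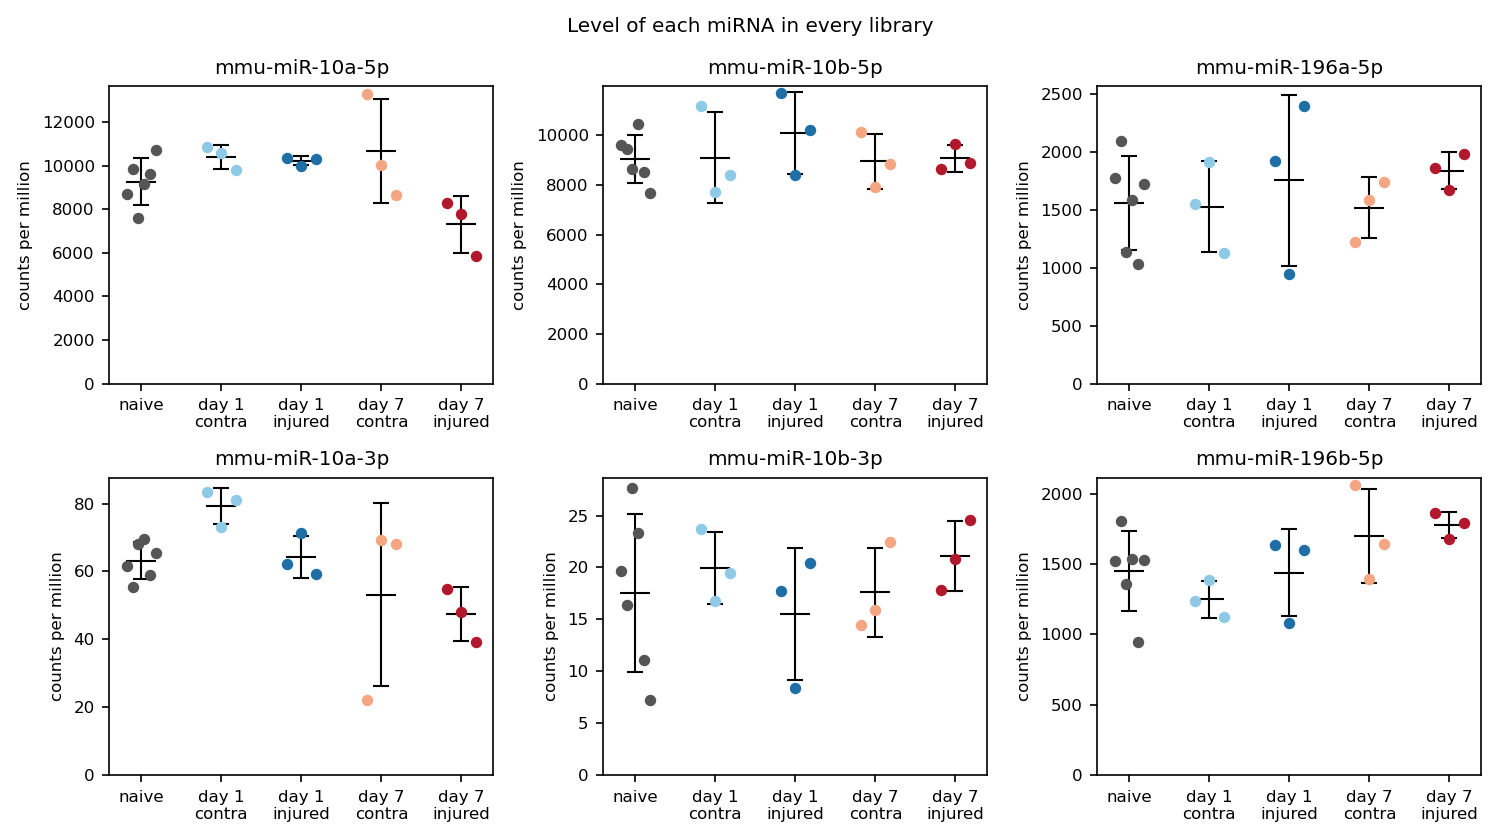
Level in CPM (y axis) of each of the 6 miRNAs in every library, by group (x axis), with points for libraries and the mean with its SD as bars. The day 7 injured libraries of mmu-miR-10a-5p sit between 5832 and 8295 CPM, below all contralateral and day 1 injured libraries, whereas those of mmu-miR-10b-5p sit among the other groups.

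The 5p arms of miR-10 also varied little between libraries of the same group. The residual SD within groups, on the log2 CPM scale, was 0.20 for mmu-miR-10a-5p and 0.19 for mmu-miR-10b-5p, and 97.2% and 97.9% of the tested miRNAs had a larger one. Low miRNAs vary more by counting alone, so the same was asked among the 73 miRNAs with a mean over 1000 CPM, of which 89.0% and 91.8% had a larger SD. mmu-miR-196b-5p had an SD of 0.27 and mmu-miR-196a-5p of 0.41, and 75.3% and 38.4% of the abundant miRNAs varied more. mmu-miR-196a-5p was thus the most variable of the 4 abundant 5p arms although its sequence differs from that of mmu-miR-196b-5p at a single base.

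**Figure D2:**
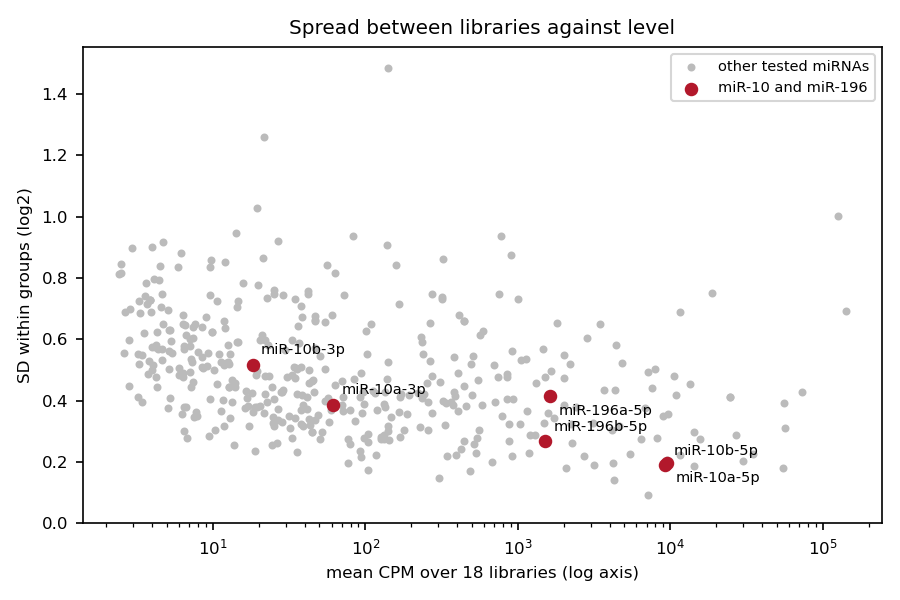
Residual SD of log2 CPM within groups (y axis) against mean CPM over 18 libraries (x axis, log scale) for the 428 tested miRNAs, with the 6 Hox-cluster miRNAs in red. The miR-10 5p arms lie near the lower edge at their level, at SDs of 0.20 and 0.19, and mmu-miR-196a-5p lies higher, at 0.41.

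Injured cartilage at day 7 was compared with naïve cartilage by limma-voom with Benjamini-Hochberg adjustment over the 428 miRNAs, and none of the 6 had an adjusted p under 0.05. Over all tested miRNAs, 18.2% were called in this comparison. Of the 6, 1 did not overlap between the groups, against 24.1% of all tested miRNAs. The median log2 difference of the 6 was 0.14, beside -0.0028 over all miRNAs, with 4 of the 6 higher and 2 lower.

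mmu-miR-10a-5p was at 8295, 7769 and 5832 CPM in the day 7 injured libraries, and at 7586 to 10700 CPM with a median of 9389 in naïve cartilage. Only the lowest naïve library overlapped the injured range. The log2 difference was -0.36 (95% interval -0.73 to 0.00, limma-voom adjusted p = 0.194), a ratio of 0.777, and it was -0.18 without day 7 injured replicate 3. mmu-miR-10a-3p, its partner arm, was at 55.0, 48.0 and 39.2 CPM in the injured libraries and at 55.5 to 69.4 CPM in naïve cartilage, so that the groups were apart by a narrow gap. Its log2 difference was -0.45 (-1.04 to 0.14, limma-voom adjusted p = 0.359), and -0.28 without day 7 injured replicate 3.

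mmu-miR-10b-5p gave the tightest estimate. It was at 8643, 9668 and 8901 CPM in day 7 injured cartilage and at 7691 to 10452 CPM with a median of 9032 in naïve cartilage. The log2 difference was 0.01 (95% interval -0.35 to 0.37, limma-voom adjusted p = 0.976), so the interval ran from a ratio of 0.783 to 1.29. It was the only one of the 6 whose interval in this comparison lay within 1.5-fold in both directions. The naïve libraries can share animals but were treated as independent, so this and the other intervals against naïve cartilage may be too narrow. mmu-miR-10b-3p was at 17.9, 20.8 and 24.6 CPM in injured cartilage and spanned 7.20 to 27.6 CPM in naïve cartilage, and its difference of 0.41 (-0.34 to 1.16) did not pass the test (limma-voom adjusted p = 0.502). That estimate was 0.22 without naïve replicate 6 and 0.59 without naïve replicate 3.

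mmu-miR-196b-5p was at 1864, 1675 and 1787 CPM in day 7 injured cartilage and at 947 to 1806 CPM, with a median of 1523, in naïve cartilage. All injured libraries lay above the naïve median. The log2 difference was 0.31 (-0.13 to 0.75, limma-voom adjusted p = 0.397). mmu-miR-196a-5p was at 1864, 1669 and 1980 CPM against 1029 to 2097 CPM, with a difference of 0.27 (-0.31 to 0.85, limma-voom adjusted p = 0.574). The miR-196 intervals reached ratios of 1.68 and 1.81, so these libraries do not exclude a rise of that size.

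The injured knee was then compared with the uninjured knee of the same day. At day 7 none of the 6 was called, where 14.7% of all tested miRNAs were, and 1 of the 6 did not overlap between the groups, where 26.6% of all did. That was mmu-miR-10a-5p, at 8295, 7769 and 5832 CPM in injured and 13276, 10043 and 8656 CPM in contralateral cartilage. Its log2 difference was -0.54 (95% interval -0.96 to -0.12), a ratio of 0.686, with an unadjusted p of 0.0137 and a limma-voom adjusted p of 0.0803. The value was -0.33 without day 7 contralateral replicate 1, the library rich in muscle miRNAs and the highest of all for this miRNA. It was -0.35 without day 7 injured replicate 3 and -0.69, with a limma-voom adjusted p of 0.0402, without day 7 contralateral replicate 3. The other 5 differed by between -0.08 (mmu-miR-10a-3p) and 0.31 (mmu-miR-10b-3p), with limma-voom adjusted p-values of 0.652 or more. For mmu-miR-10b-5p the difference was 0.03, with an interval from -0.38 to 0.45. The direction for mmu-miR-10a-3p depended on single libraries, since the difference was -0.51 without day 7 contralateral replicate 1 but 0.23 and 0.13 without replicates 2 and 3 of that group and 0.11 without day 7 injured replicate 3, with limma-voom adjusted p-values from 0.139 to 0.949.

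At day 1, no miRNA of the table was called in injured cartilage, against naïve cartilage (0% of 428) or against contralateral cartilage (0% of 428), with 8 miRNAs at an unadjusted p under 0.05 in each comparison and none of the 6 among them. The 6 differed from naïve cartilage by between -0.09 and 0.16 on the log2 scale, and for 3 of the 6 the interval lay within 1.5-fold in both directions. Against the contralateral knee they differed by between -0.37 (mmu-miR-10b-3p) and 0.19 (mmu-miR-196b-5p). Contralateral cartilage itself did not yield a call against naïve cartilage at day 1 (0%, with 4 miRNAs at an unadjusted p under 0.05) or day 7 (0%, with 23), and none of the 6 was among those either.

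**Figure D3:**
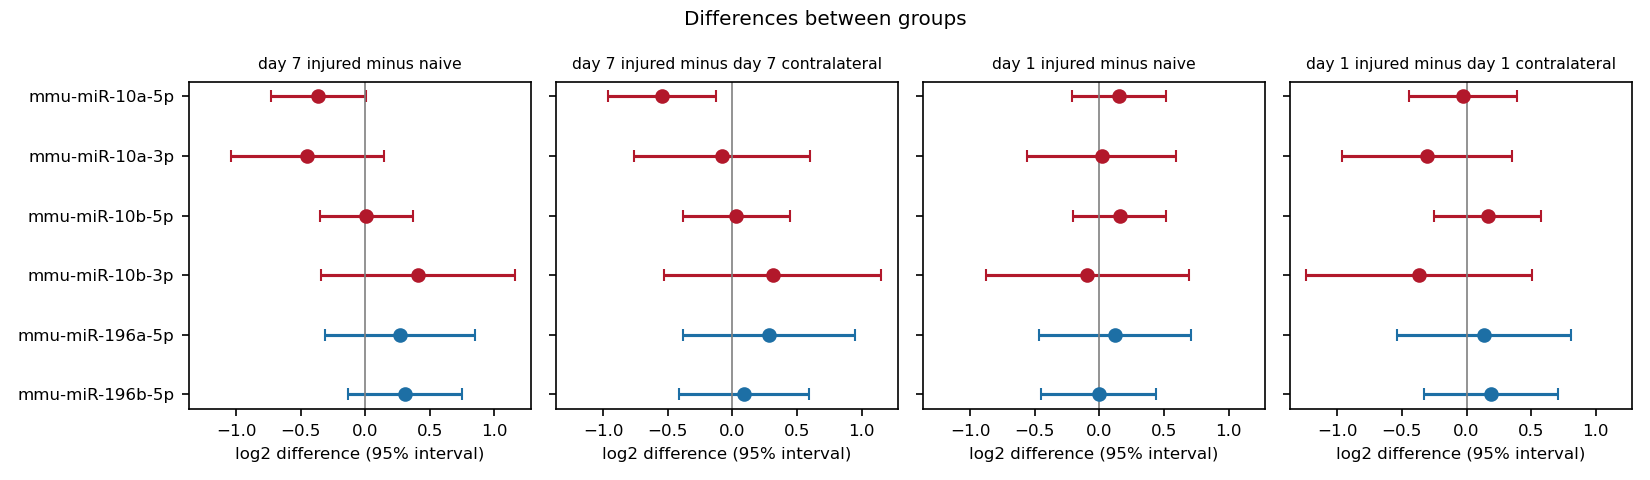
Log2 difference (x axis) of each miRNA in 4 comparisons, with points for the limma-voom estimate, bars for its 95% interval, miR-10 in red and miR-196 in blue. Nearly all intervals cross 0, and the exception is mmu-miR-10a-5p in day 7 injured against contralateral cartilage, at -0.54 with an interval from -0.96 to -0.12.

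Between day 1 and day 7, injured cartilage showed no call among the 6, against 15.7% of all tested miRNAs. Of the 6, 3 did not overlap between the days, and 34.3% of all tested miRNAs did not. mmu-miR-10a-5p went from 10358, 9992 and 10319 CPM at day 1 to the day 7 values above, a log2 difference of -0.51 (-0.94 to -0.09, unadjusted p = 0.0199, limma-voom adjusted p = 0.0975). mmu-miR-10a-3p differed by -0.47 (limma-voom adjusted p = 0.401, and -0.21 without day 7 injured replicate 3), and mmu-miR-196b-5p by 0.32, from 1635, 1083 and 1597 CPM to 1864, 1675 and 1787 CPM (limma-voom adjusted p = 0.448, and 0.56 without day 1 injured replicate 1). The estimate for mmu-miR-10a-5p was -0.24 without day 7 injured replicate 3, its lowest library. This comparison and the others above share the day 7 injured libraries, so the lower mmu-miR-10a-5p values in them are a single set of 3 libraries.

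In contralateral cartilage no miRNA was called between the days (0%, with 25 at an unadjusted p under 0.05). mmu-miR-10a-3p was 1 of those 25, at -0.70 (unadjusted p = 0.0397, limma-voom adjusted p = 0.701). Its contralateral values were 83.3, 73.1 and 81.1 CPM at day 1 and 22.0, 69.1 and 68.2 CPM at day 7, so the difference came mostly from day 7 contralateral replicate 1, and it was -0.17 without that library. The 5p arm was not low there, at 13276 CPM, and the 5p to 3p ratio of miR-10a was 595 in that library against 111 to 177 in the other 17. The test of whether the injury difference itself changed from day 1 to day 7 called none of the 6, against 6.78% of all tested miRNAs. For mmu-miR-10a-5p this difference of differences was -0.52 (-1.11 to 0.07, limma-voom adjusted p = 0.373), and it was -0.27 without day 7 contralateral replicate 1 and -0.29 without day 7 injured replicate 3.

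Marker levels that moved beside mmu-miR-10a-5p were examined. Permutation p-values of correlations, here and below, shuffled all 18 libraries as if independent. Contralateral knees belonged to the injured animals and naïve libraries can share animals, so these p-values may be too small. The miRNAs listed as erythroid (miR-451a, both arms of miR-144 and the 5p arms of the miR-486 pair) summed to 4771 to 6656 CPM in day 7 injured cartilage and 9923 to 14867 CPM in naïve cartilage, with no overlap. Over 18 libraries mmu-miR-10a-5p correlated with this sum (Pearson's r = 0.674, permutation p = 0.00268, adjusted p = 0.0268 over the 30 relations of 6 miRNAs with 5 lists). Spearman's rho was 0.474 (permutation p = 0.0496, adjusted p = 0.137), r was 0.298 without the 2 libraries farthest from the median of the erythroid sum, and it was 0.298 within groups. The relation with the sum thus leaned on the libraries farthest out. These were day 7 injured replicates 3 and 2, at 4771 and 6342 CPM, which belong to the group at issue. For mmu-miR-451a alone, r was 0.732, rho was 0.643 and r within groups was 0.755. It was picked below as 1 of the 3 closest of all tested miRNAs, so no p is given. The miR-486a and miR-486b 5p arms had the same counts, so their reads enter the erythroid sum more than once. They also make up most of it, at a mean of 4603 CPM each over 18 libraries. The sum thus mostly reflects miR-486, and whether it tracks erythroid RNA was not tested. The mean was 1452 CPM for miR-451a, and 403 and 266 CPM for the 5p and 3p arms of miR-144. The part of erythroid RNA in the lower mmu-miR-10a-5p values was not tested. Against the summed cartilage markers, r was -0.542 for mmu-miR-10a-5p (permutation p = 0.0193, adjusted p = 0.0828). It was 0.523 for mmu-miR-196a-5p (permutation p = 0.0259, adjusted p = 0.0971). Against the leukocyte list, r was 0.496 for mmu-miR-10a-5p (permutation p = 0.0436, adjusted p = 0.131). No member had an adjusted p under 0.05 with either of these lists.

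The miR-196 5p arms moved with other markers. mmu-miR-196b-5p correlated with the summed vascular list, which holds both arms of endothelial miR-126a and the smooth muscle miR-143-3p and miR-145a-5p, at r = 0.814 (permutation p = 0.00015, adjusted p = 0.0045) and rho = 0.730 (permutation p = 0.00085, adjusted p = 0.0255). This was 0.810 without the 2 farthest libraries and 0.817 within groups. mmu-miR-196a-5p correlated with the same sum at r = 0.724 (permutation p = 0.00075, adjusted p = 0.0113) and rho = 0.565 (permutation p = 0.0168, adjusted p = 0.104), with 0.596 without the 2 farthest libraries and 0.768 within groups. No such relation was called for mmu-miR-10a-5p (r = 0.228, permutation p = 0.363, adjusted p = 0.518) or mmu-miR-10b-5p (r = 0.405, permutation p = 0.0968, adjusted p = 0.171), and the difference between these correlations was not tested.

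The summed skeletal muscle list holds myomiRs of the miR-1, miR-133 and miR-206 families and miR-499. miR-208b was listed but did not pass the filter on low counts, so it is not in the sum. Most of the sum was mmu-miR-1a-3p, with a mean of 141427 CPM over 18 libraries. With this sum, the correlation within groups was 0.804 for mmu-miR-196a-5p and 0.879 for mmu-miR-196b-5p. Over all libraries it was weaker, at r = 0.623 (permutation p = 0.00592, adjusted p = 0.0444; rho = 0.546, permutation p = 0.0208, adjusted p = 0.104) and r = 0.583 (permutation p = 0.0105, adjusted p = 0.0632; rho = 0.480, permutation p = 0.0452, adjusted p = 0.137). It fell to 0.348 and 0.277 without the 2 libraries farthest from the median muscle level. The miR-10 5p arms were not without such a relation. For mmu-miR-10a-5p, r was 0.468 (permutation p = 0.0481, adjusted p = 0.131; rho = 0.591, permutation p = 0.0113, adjusted p = 0.104), 0.320 within groups and 0.70 without the 2 farthest libraries. For mmu-miR-10b-5p, r was 0.449 (permutation p = 0.0626, adjusted p = 0.134; rho = 0.519, permutation p = 0.0301, adjusted p = 0.129), 0.512 within groups and 0.402 without them. Whether the families differ in this relation was not tested. The day 7 injured libraries had muscle levels of 69623 to 133932 CPM, below the naïve median of 142855 CPM, and mmu-miR-196b-5p above its naïve median. In a fit with the muscle sum as a covariate, which was added after these values had been seen, mmu-miR-196b-5p was higher in day 7 injured than in naïve cartilage by 0.45 (limma-voom adjusted p = 0.0390, where 22.9% of all tested miRNAs were called), and mmu-miR-196a-5p by 0.47 (limma-voom adjusted p = 0.108). In a fit with the vascular sum as a covariate the same differences were 0.12 and -0.0017 (limma-voom adjusted p = 0.701 and 0.994). All these levels are relative, and within a library the same scaling factor applies to miR-196 and to the marker sums. Scaling thus enters both sides of these correlations. In percent of unscaled counts, mmu-miR-196b-5p was 0.114 in day 1 injured replicate 3 (muscle sum 274781 CPM) and 0.137 in replicate 2 (55099 CPM). Naïve replicate 5, lowest of its group for muscle at 67506 CPM, was also lowest for mmu-miR-196b-5p, at 0.128. Correlations on unscaled counts were not computed, and which cells carried miR-196 was not tested.

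**Figure D4:**
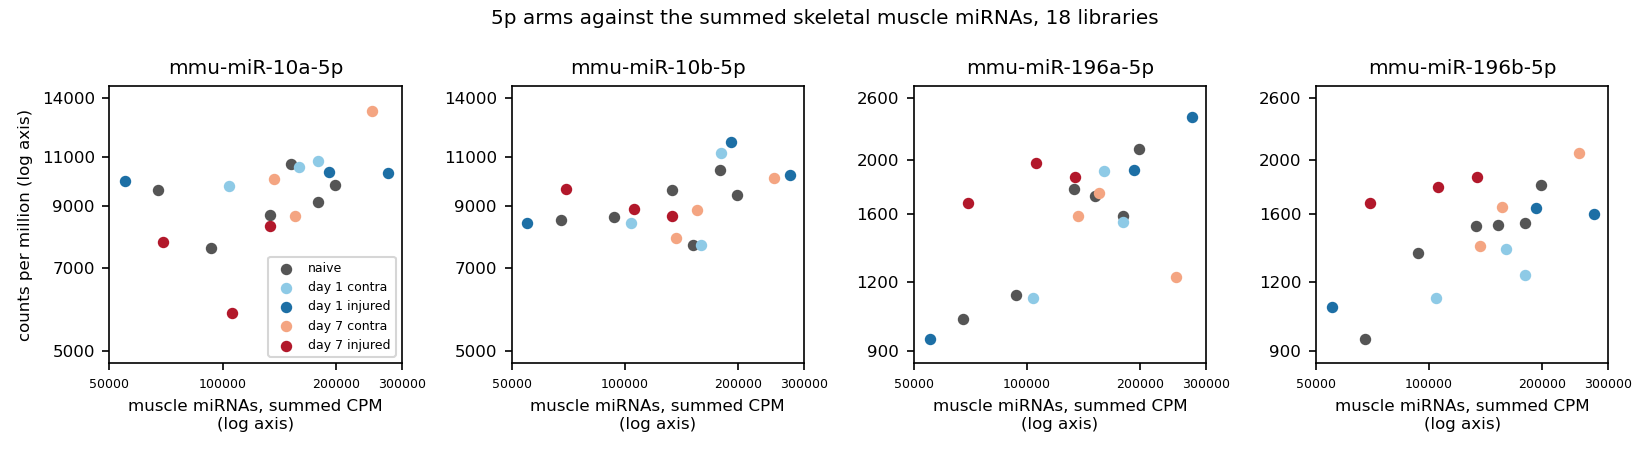
CPM of the 5p arms (y axes, log scale) against the summed skeletal muscle miRNAs (x axes, CPM, log scale) in 18 libraries, coloured by group. Pooled over groups after group means were removed, mmu-miR-196a-5p and mmu-miR-196b-5p are higher where muscle miRNAs are higher (r of 0.804 and 0.879). This does not hold in every group. In day 7 contralateral cartilage mmu-miR-196a-5p is lowest, at 1226 CPM, in replicate 1, which has the most muscle miRNAs (249856 CPM). Scaling between libraries enters both axes. The day 7 injured libraries lie to the left of most libraries with a similar miR-196b level.

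Ratios of counts within a library do not depend on scaling between libraries, and 5 ratios were compared in 6 pairs of groups by two-sided exact permutation tests, adjusted over the 30 tests. With 3 libraries against 6 the smallest possible p is 0.0238, and with 3 against 3 it is 0.1, so a comparison of 3 against 3 could not pass at all. A single test of 3 against 6 at its smallest p has an adjusted p of 0.714, and 15 of the 30 tests would have to sit there for any to pass. The adjusted p-values of the ratios, all 0.75 or more, were thus largely set by the design and say nothing about stability.

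The ratio of mmu-miR-10b-5p to mmu-miR-10a-5p was 1.04, 1.24 and 1.53 in day 7 injured cartilage, 0.762, 0.788 and 1.02 in day 7 contralateral cartilage, and 0.719 to 1.14 with a median of 1.03 in naïve cartilage. The injured libraries lay above all contralateral libraries of that day and overlapped with the naïve ones. The geometric means were 1.26, 0.850 and 0.979. The exact permutation p was 0.1 against contralateral cartilage, the smallest this design allows, and 0.119 against naïve cartilage (adjusted p = 0.75 for both).

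The ratio of the miR-196 to the miR-10 5p arms was 0.220, 0.192 and 0.256 in day 7 injured cartilage and 0.109 to 0.203, with a median of 0.167, in naïve cartilage. All but 1 injured library were above all naïve ones. The geometric means were 0.221 and 0.161, a 1.38-fold difference (exact permutation p = 0.0476, adjusted p = 0.75). Against day 7 contralateral cartilage, with 0.140, 0.166 and 0.193, the exact permutation p was 0.2 (adjusted p = 0.75). The ratio of mmu-miR-196b-5p to mmu-miR-196a-5p had a geometric mean of 0.968 in day 7 injured and 0.941 in naïve cartilage. It was 1.68 in day 7 contralateral replicate 1, the highest of the 18 libraries.

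**Figure D5:**
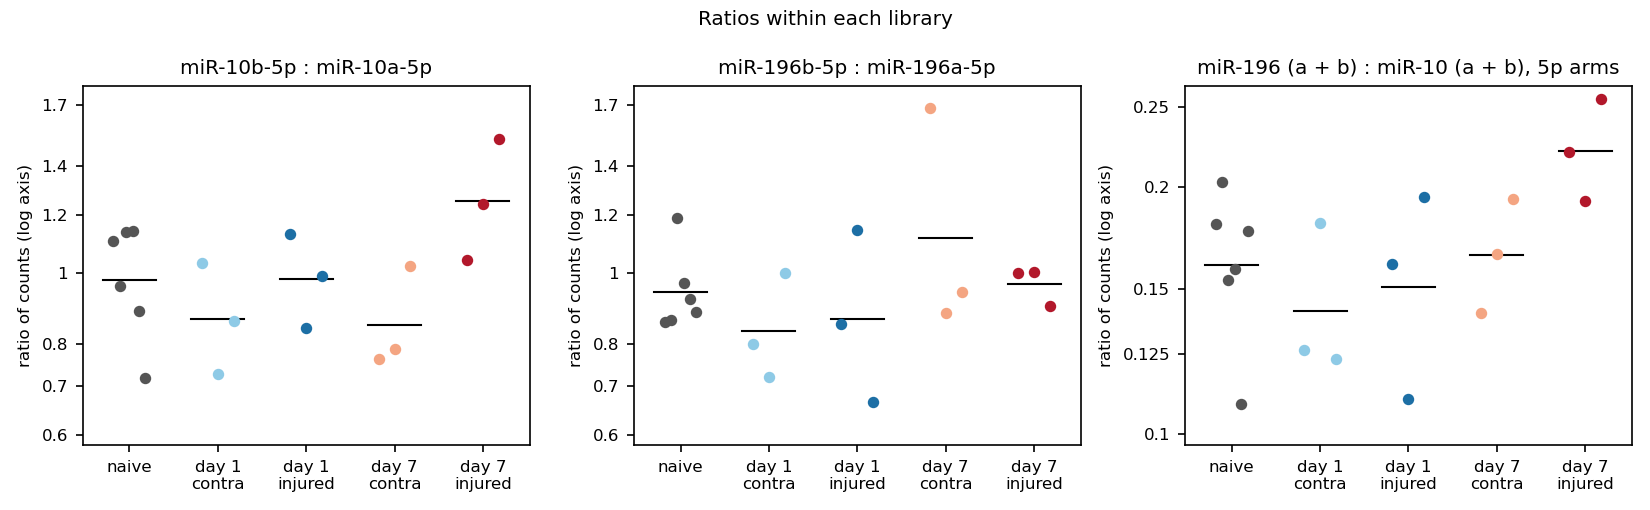
Ratio of counts within each library (y axes, log scale) by group (x axes), with points for libraries and lines for geometric means. The day 7 injured libraries reach the highest values of the miR-10b to miR-10a ratio, 1.53, and of the miR-196 to miR-10 ratio, 0.256.

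Other miRNAs of the Hox clusters were nearly absent, with 1 exception. Of the 5 remaining arms listed, the miR-196 3p arms had 2 (mmu-miR-196a-1-3p), 13 (mmu-miR-196a-2-3p) and 28 (mmu-miR-196b-3p) counts over all 18 libraries, and mmu-miR-615-5p had 102, so 1 of 5 was tested. mmu-miR-615-3p, from an intron of Hoxc5, was at 347, 371 and 417 CPM in day 7 injured cartilage, 134 to 358 CPM with a median of 185 in naïve cartilage, and 114, 170 and 339 CPM in day 7 contralateral cartilage. The injured libraries lay above all contralateral ones. Its log2 difference was 0.82 (0.11 to 1.54, limma-voom adjusted p = 0.119) against naïve and 1.00 (0.18 to 1.83, limma-voom adjusted p = 0.108) against contralateral cartilage, and it was not called in any comparison.

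The miR-99 and miR-100 family, which resembles miR-10 outside the seed, had 4 of 6 listed arms tested, and none was called in any comparison. mmu-miR-99a-5p was the most abundant, at 53234 ± 10453 CPM (SD, n = 6) in naïve and 54725 ± 6533 CPM (SD, n = 3) in day 7 injured cartilage. mmu-miR-100-5p was at 4475 ± 526 CPM (SD, n = 6) and 3858 ± 195 CPM (SD, n = 3), a log2 difference of -0.21 (limma-voom adjusted p = 0.454). The median log2 difference of the 4 was 0.14 in day 7 injured against naïve cartilage and 0.41 against contralateral cartilage, beside -0.0028 and -0.05 over all tested miRNAs.

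The miRNAs outside the families whose log2 CPM followed each 5p arm most closely over the 18 libraries were found by Pearson's r, given here with Spearman's rho and with r within groups. These were picked as the highest of all tested miRNAs, so no p is given. For mmu-miR-10a-5p they were mmu-miR-326-3p (r = 0.829, rho = 0.616, 0.697 within groups), mmu-miR-181c-3p (0.736, 0.544, 0.559) and the erythroid mmu-miR-451a (0.732, 0.643, 0.755). For mmu-miR-10b-5p they were mmu-miR-135a-5p (0.628, 0.661, 0.785), mmu-miR-9-5p (0.607, 0.726, 0.725) and the smooth muscle miRNA mmu-miR-143-3p (0.594, 0.705, 0.692).

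For mmu-miR-196a-5p they were mmu-miR-24-1-5p (r = 0.898, rho = 0.812, 0.922 within groups), mmu-miR-24-2-5p (0.890, 0.825, 0.885) and the scarce mmu-miR-1943-5p (0.851, 0.756, 0.935). For mmu-miR-196b-5p they were the endothelial mmu-miR-126a-3p (0.849, 0.771, 0.839), mmu-miR-872-5p (0.791, 0.80, 0.753) and mmu-miR-3074-2-3p (0.784, 0.732, 0.807). No miRNA was on more than 1 of these lists. Among the members, mmu-miR-196a-5p and mmu-miR-196b-5p followed each other (r = 0.652, rho = 0.616, 0.710 within groups), whereas mmu-miR-10a-5p and mmu-miR-10b-5p had r = 0.146 (rho = 0.034, 0.153 within groups). For the arms of miR-10a, r was -0.02 (-0.47 within groups) and rho had the opposite sign, 0.296, and day 7 contralateral replicate 1, which stood apart in their ratio, is among these libraries.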

How the data were processed

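Small RNA was sequenced from pooled knee cartilage in 18 libraries. Per the study's methods, the authors ran an nf-core small RNA pipeline set to GRCm38 (Trim Galore 0.6.6, Bowtie 1.3.0 against miRBase mature sequences, SAMtools 1.12) and deposited raw counts per mature miRNA. How reads matching several mature sequences were counted is not given in the sources used here. The miR-486a and miR-486b 5p arms had the same counts, so such reads appear to be counted under each name. Library totals and percentages would then include them more than once. A read with an error at the base that separates a pair of paralogues can be counted under the other. Table entries were joined to the labels by library number, although the prefix before that number differs.

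Counts were filtered with filterByExpr (minimum count 10, minimum total 15), scaled with TMM (edgeR 4.0.16) and fitted with limma-voom (limma 3.58.1, R 4.3.3) with 1 mean per group over 18 libraries and 9 contrasts, at an adjusted p threshold of 0.05. The study also modelled shared pools, which the labels do not give, so libraries were treated as independent and p-values measure only the spread between them. Ratios used counts plus 0.5 and exact permutation tests (scipy 1.17.1). Correlations used log2 CPM (prior count 2) and 100000 permutations. The fits were tested on simulated data. Alternatives changed the scaling, the filter, the test (edgeR quasi-likelihood, DESeq2 1.42.0, quality weights), the libraries fitted, and the ratio offset (1 and 5). The text names all 6 members, the tested related miRNAs, marker lists as sums and, for each 5p member, the 3 most alike miRNAs. The members and lists were chosen with earlier results of these data known.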

Additional observations from a re-analysis of the deposited data

Results flagged for a closer look

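The ratio of mmu-miR-196b-5p to mmu-miR-196a-5p in naïve replicate 3 was 1.19, whereas the other 5 naïve libraries lay between 0.857 and 0.97. Its gap to the nearest library was 0.661 of the whole range of the group, above Dixon's critical value for 6 libraries. Of 11 quantities examined in this way it was the only such case. Chance alone flags about 1 in 20 of such quantities, so 1 flag among 11 is not unusual.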

How the results depend on the processing

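None of the 6 members was called in the main analysis, and alternatives moved this count in the 3 comparisons of day 7 injured cartilage. With quality weights 2 members were called against naïve cartilage (mmu-miR-10a-5p, -0.34, adjusted p = 0.0374; mmu-miR-10a-3p, -0.43, adjusted p = 0.0485) and 1 against day 1 injured cartilage (mmu-miR-10a-5p, -0.48, adjusted p = 0.0181), in a fit that called more of all tested miRNAs too, 31.5% (135 against 78) and 25.5% (109 against 67). With DESeq2, 1 was called against contralateral cartilage (mmu-miR-10a-5p, -0.56, adjusted p = 0.0425), with 17.1% of all called. With covariates, added after the data had been seen, the muscle sum gave 1 call against naïve and 1 against day 1 injured cartilage (mmu-miR-196b-5p), where 22.9% and 21% of all were called, and the vascular sum 1 against contralateral and 1 against day 1 injured cartilage (mmu-miR-10a-5p), where 18% and 17.8% were. A count of 1 of 6 is near these shares and says nothing particular about the members. Leaving out 1 library gave between 0 and 1 calls against contralateral cartilage. Over all alternatives mmu-miR-10a-5p stayed lower, with adjusted p from 0.0374 to 0.751 against naïve, 0.0402 to 0.556 against contralateral and 0.0181 to 0.732 against day 1 injured cartilage. The cause of these changes was not tested.

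Of 1366 alternative values of 94 differences and ratios, 134 changed sign, and none of those was called. For mmu-miR-10b-5p against naïve cartilage the value was -0.12 with library totals, -0.024 with no filter, -0.0022 with DESeq2, -0.011 with quality weights and -0.072 with the vascular covariate, and against contralateral cartilage -0.015 with no filter. For mmu-miR-196a-5p it was -0.0017 against naïve and -0.0042 against day 1 injured cartilage with the vascular covariate, and -0.11 against day 1 injured cartilage with quality weights. For mmu-miR-100-5p against contralateral cartilage it was -0.010 with no filter. Leaving out 1 library, mmu-miR-10b-5p ranged from -0.016 to 0.11 against naïve, -0.018 to 0.19 against contralateral and -0.16 to 0.11 against day 1 injured cartilage, mmu-miR-196a-5p from -0.11 to 0.54 against day 1 injured cartilage, and mmu-miR-10a-3p from -0.51 to 0.23 and mmu-miR-196b-5p from -0.0075 to 0.30 against contralateral cartilage. No paired analysis was possible because the labels carry no replicate numbers that pair libraries.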
